A study of Mus musculus with 24 samples.

Results

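The comparison described here is the loss of IRE1 in granulocyte-macrophage progenitors (GMP), taken over both Flt3 genotypes of the study. It used 12 of the 24 bulk RNA-seq libraries of the series: the 6 GMP libraries whose genotype label carries the floxed Ern1 alleles with VavCre were set against the 6 whose label does not. Each of the 4 genotypes gave 3 libraries. Control genotypes were wild type, called WT, and mice with the Flt3 internal tandem duplication, Flt3-ITD, called ITD. The genotype Ern1(fl/fl)-VavCre is called IRE1_KO. The same alleles joined with Flt3-ITD, written Ern1(fl/fl)-VavCre-Flt3-ITD, are called IRE1_KO_ITD. All mice were on the C57BL/6 background. The cells were sorted by flow cytometry from bone marrow. Libraries with the Ern1 label are called Ern1-labelled libraries below, and WT and ITD libraries together are called control libraries. VavCre places the Cre recombinase under the Vav promoter, which is active in blood-forming cells, so a deletion would be carried by the whole blood system and not by GMP alone. By the labels the control mice carried no Cre, and no Cre-only control was among the groups. Effects of VavCre and of Ern1 loss thus cannot be told apart for any gene. The labels give neither the age of the mice nor whether each library came from a separate animal. P-values therefore measure the spread between these libraries, which may be technical in part. By Xist and Y-linked genes, WT, IRE1_KO and IRE1_KO_ITD each held libraries of both sexes, and so of more than 1 animal. ITD held females alone, which leaves the number of animals unknown.

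IRE1α, encoded by Ern1, is the most conserved sensor of unfolded proteins in the endoplasmic reticulum (ER). When activated, its endoribonuclease cuts an intron out of Xbp1 mRNA, and the spliced mRNA encodes XBP1s, a transcription factor for genes of protein entry into the ER, folding, glycosylation, degradation and export. The same nuclease can degrade other ER-bound mRNAs, which is called RIDD. GMP are committed myeloid progenitors that make large amounts of granule proteases through the ER.

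Values are FPKM, fragments scaled by transcript length and by the mapped fragments of the library, as deposited. A gene was tested when it reached 1 FPKM in at least 3 of the 12 libraries. Tests were made with limma on log2(FPKM + 1) with the Flt3 genotype as a covariate, and a gene was called when its Benjamini-Hochberg adjusted p was under 0.05. A log2 fold change is Ern1-labelled minus control on that scale, which understates the change of genes of low FPKM, and the error after it is its standard error (SE). Only called genes are said to have risen or fallen.

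The 12 libraries were alike in FPKM sum and in the number of genes at 1 FPKM or more. FPKM sums ran from 567255 to 673177, and between 10436 and 10831 genes reached 1 FPKM. The tables hold no counts, so the depth is not given directly. From the steps between low values, relative depth was estimated at 0.827 to 1.04 of that of WT replicate 1. Libraries of one genotype correlated at r = 0.933 to 0.967 across genes. All 13 GMP markers, among them Mpo, Elane and Prtn3, reached 1 FPKM in every library. Their summed FPKM was 30513 to 32016 in WT, 25879 to 29793 in IRE1_KO, 19208 to 22915 in ITD and 19326 to 22446 in IRE1_KO_ITD. Every IRE1_KO library thus lay below every WT library, while ITD and IRE1_KO_ITD overlapped. T and NK cell markers stayed under 1 FPKM in all 12. Erythroid markers summed to 62.4 to 463 FPKM in WT and 219 to 590 in IRE1_KO. In ITD they summed to 2.885 to 73.4 and in IRE1_KO_ITD to 0.396 to 16.3. B cell markers, in the same order of genotypes, summed to 34 to 148, 42.6 to 175, 1.12 to 4.96 and 0.698 to 1.2 FPKM. Megakaryocyte markers summed to 39.3 to 77, 23.7 to 125.5, 5.58 to 19.1 and 6.95 to 10.6 FPKM. None of these markers was called. ITD replicate 1 and IRE1_KO_ITD replicate 3 stood apart from the rest, at 48.2 and 45.1 on the first principal component, which held 29.9% of the variance. The summed FPKM of 5 mature neutrophil markers ranged widely in both groups, from 573 to 14665 in control and from 310 to 15844 in Ern1-labelled libraries. The 3 eosinophil markers summed to 626 to 1572 FPKM in WT, 188 to 637 in IRE1_KO, 3.29 to 352 in ITD and 2.63 to 12.7 in IRE1_KO_ITD. The wider list of 23 tested basophil, mast cell and eosinophil genes lay at a median of -0.34 on the log2 scale, with 18 below 0, 7 at an unadjusted p under 0.05 and 0 called by limma, and with both libraries that stood apart left out 1 fell. Its summed FPKM was 3506 to 4347 in WT, 2077 to 3291 in IRE1_KO, 870 to 2317 in ITD and 1158 to 2216 in IRE1_KO_ITD. The part of such cells in the results below was not tested. None of the GMP, neutrophil or eosinophil markers was called. In bulk RNA, fewer cells of a type and less RNA per cell cannot be told apart.

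Of 11249 genes tested, 106 were called, 0.942%. In Ern1-labelled libraries 85 fell, 0.756% of the genes tested, and 21 rose, 0.187%. The genes that fell were largely those of the ER and the early secretory pathway. The 5 lists of ER genes, covering translocation, N-glycosylation, chaperones and disulfide isomerases, ER-associated degradation, and COPII and ER-Golgi trafficking, held 224 tested genes, of which 50 fell, 22.3%, and 0 rose. Outside these lists, 35 of 11025 genes fell, 0.317%, and 21 rose. The median log2 fold change was -0.16 over the listed genes and 0.08 over all tested genes, of which 30.9% lay below 0. With ITD replicate 1 and IRE1_KO_ITD replicate 3 left out, 72 genes fell and 17 rose, and the 5 lists, in the order given, held 12, 7, 12, 4 and 11 fallen genes.

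The median change of the fallen genes was -0.64 on the log2 scale, and 12 of them fell by at least 1. For 69 of the 85, every Ern1-labelled library lay below every control library. Over all tested genes such a separation was seen for 85 genes in the lower direction, 0.756%. The risen genes had a median of 0.44, and 12 of the 21 were separated without overlap, against 67 of all tested genes, 0.596%. In the leave-one-out fits, which drop each library in turn, 58 of the 85 fallen genes and 6 of the 21 risen genes were called in all 12. The number of risen genes ranged from 6 without IRE1_KO_ITD replicate 3 to 54 without ITD replicate 1, and that of fallen genes from 61 to 87.

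**Figure D1:**
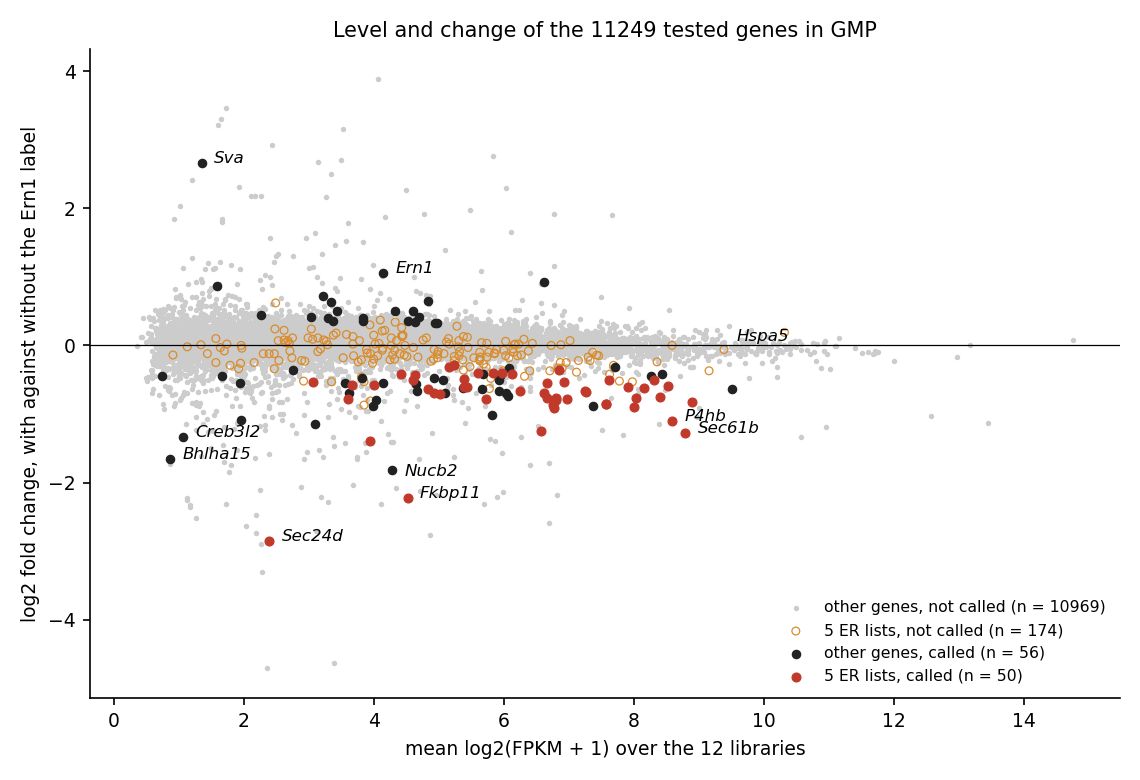
Each point is 1 of the 11249 genes tested. The horizontal axis is the mean log2(FPKM + 1) over the 12 GMP libraries and the vertical axis the log2 fold change of Ern1-labelled against control libraries; red filled points are called genes of the 5 ER lists, orange open points ER genes that were not called, black points other called genes and grey points the rest. The 50 called ER genes lie below 0, and Ern1 and Sva are among the 21 called genes above it.

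XBP1s is known to bind promoter elements with a CCACG or ACGTGG core, so the 250 bases before the annotated transcription start were read for the genes that have a RefSeq promoter window (build GRCm38.p6), on both strands. Windows were found for 71 of the 85 fallen genes, 91 windows in all, and for 8884 of the 11249 tested genes. In 49 of the 91 windows the bases after the start matched the opening of a GENCODE transcript. Distances to the start are less certain for the others. The word CCACGT was present before 24 of the 71 fallen genes, 33.8%, against 11.4% of all tested genes with a window and 15% of the risen genes with a window. Per window the shares were 29.7% and 9.67%. The ER stress element was searched as CCAAT and CCACG with any 9 bases between them. It was present in 3 of the 91 windows of fallen genes, 3.3%, and in 17 of 11209 windows of all tested genes, 0.152%. The related element, ATTGG, any base and CCACG, was present in 1 window, 1.1%, and 6 windows, 0.0535%. The word TGACGTGG, the unfolded protein response element, was present in 3 windows, 3.3%, and 81 windows, 0.723%. Those of fallen genes belonged to Sec24d, Smim14 and Isg20. TGACGTCA, the cyclic AMP response element, was present in 1 window, 1.1%, and 291 windows, 2.6%. Shares that rest on so few windows of fallen genes are uncertain. CCACGT on one strand is part of TGACGTGG on the other, so these words share matches. A match describes these letters and is neither a bound site nor a cause. The stretches around the match are shown for 6 fallen genes, chosen to show each kind of element and the CCACGT word alone, 5′ to 3′ on the strand of the gene with the match in capitals.
Sec24d: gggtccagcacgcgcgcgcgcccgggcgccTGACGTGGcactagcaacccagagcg
Dnajc3: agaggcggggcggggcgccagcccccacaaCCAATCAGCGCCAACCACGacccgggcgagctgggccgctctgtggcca
Pdia6: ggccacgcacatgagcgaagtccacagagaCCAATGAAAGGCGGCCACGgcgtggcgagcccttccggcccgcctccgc
Herpud1: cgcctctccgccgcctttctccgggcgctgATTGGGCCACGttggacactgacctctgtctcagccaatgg
P4hb: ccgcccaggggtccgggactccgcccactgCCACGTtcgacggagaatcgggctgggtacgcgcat
Serp1: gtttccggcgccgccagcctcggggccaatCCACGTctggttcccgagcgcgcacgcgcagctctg
The Sec24d stretch is chr3:123267440-123267495 on the plus strand, with the match 26 bases before the start. The Dnajc3 stretch is chr14:118937797-118937875 on the plus strand, 105 bases before the start. That of Pdia6 is chr12:17266461-17266539, plus strand, 98 bases before the start, and that of Herpud1 is chr8:94386347-94386417, plus strand, 52 bases before it. P4hb and Serp1 lie on the minus strand, at chr11:120573275-120573340 and chr3:58525893-58525958, with the match 57 and 44 bases before the start.

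The sensors and transcription factors of the unfolded protein response were read first, since they include the targeted gene. Ern1 (chr11:106397620-106487796, build mm10) was not lower in the libraries labelled IRE1_KO. It measured 10.4, 9.2 and 7.59 FPKM in WT, 14, 11.8 and 16 in ITD, 19.3, 24.5 and 17.9 in IRE1_KO, and 26.6, 28.5 and 33.2 in IRE1_KO_ITD. All 6 Ern1-labelled libraries lay above all 6 control libraries, and Ern1 rose by 1.06 ± 0.11 (adjusted p = 0.000433). An FPKM per gene sums over the exons and cannot show whether a floxed part was removed, so it neither checks the deletion nor measures functional mRNA. Directions below therefore refer to the libraries as labelled. Among the 85 tested genes within 5000000 bp on either side of Ern1, Ern1 itself was the only gene called in the higher direction and 0 fell.

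Creb3l2, an ER-anchored transcription factor of the CREB3 family, fell. It measured 1.68 to 2.88 FPKM in control libraries (median 2.33) and 0.132 to 0.440 in Ern1-labelled ones (median 0.347), a log2 fold change of -1.33 ± 0.10 (adjusted p = 4.39e-05). Bhlha15 (Mist1), a transcription factor that scales up the secretory pathway in professional secretory cells and a known XBP1 target, ranged from 1.31 to 6.68 FPKM in control libraries (median 1.77). In Ern1-labelled libraries it ranged from 0 to 0.0832 FPKM (median 0.00961). Its log2 fold change was -1.66 ± 0.22 (adjusted p = 0.00343), a value that rests on the pseudocount because the Ern1-labelled levels are close to 0. Both were chosen after their values were seen, since their FPKM lies under the minimum of the naming rule.

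The other sensors and factors were not called. Xbp1 mRNA, spliced and unspliced together, measured 87.2 to 127 FPKM in control and 114 to 182 in Ern1-labelled libraries, a log2 fold change of 0.50 ± 0.13 (adjusted p = 0.104), with overlap between the groups. For Atf6, the sensor that is cleaved in the Golgi, the log2 fold change was -0.30 (adjusted p = 0.199). For Eif2ak3, which encodes the kinase PERK, it was -0.28 (adjusted p = 0.447). Atf4 and Ddit3 (CHOP), factors of the PERK branch, had log2 fold changes of -0.20 (adjusted p = 0.463) and -0.06 (adjusted p = 0.912). Of the 14 sensors and factors tested, Creb3l2 was the only one to fall and Ern1 the only one to rise.

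**Figure D2:**
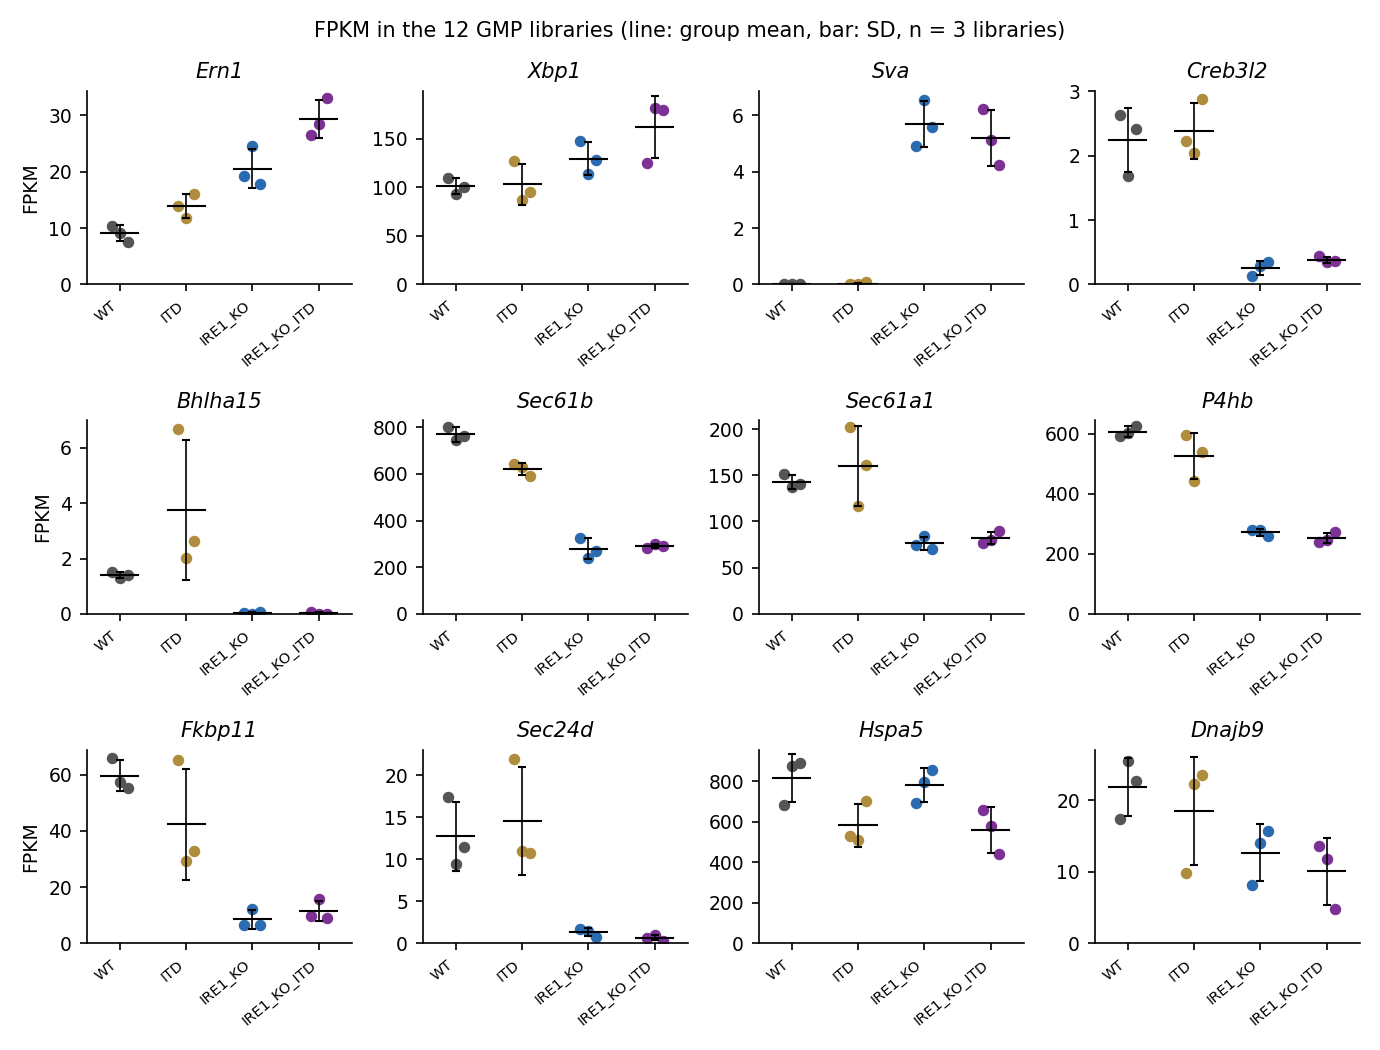
FPKM of 12 genes in the 12 GMP libraries, by genotype; each point is 1 library, the line the mean of 3 libraries and the bar the SD (n = 3), and each axis starts at 0. Ern1 and Sva are higher and Creb3l2, Bhlha15, Sec61b, Sec61a1, P4hb, Fkbp11 and Sec24d lower in every Ern1-labelled library than in every control library, while the groups overlap for Xbp1, Hspa5 and Dnajb9.

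Genes of protein entry into the ER fell together. Of 27 tested genes of translocation and signal peptide processing, 11 fell and 0 rose; 24 lay below 0, and the list's median was -0.33 against 0.08 over all genes. The genes of all subunits of the SEC61 channel, in its SEC61A1 form, were among them. Sec61b, its β subunit, measured 590 to 803 FPKM in control libraries (median 692) and 240 to 328 in Ern1-labelled ones (median 287), a log2 fold change of -1.28 ± 0.09 (adjusted p = 3.97e-05). Sec61g, the γ subunit, measured 114 to 183 FPKM (median 158) against 51.0 to 75.4 (median 59.1), and fell by 1.25 ± 0.14 on the log2 scale (adjusted p = 0.00103). Sec61a1, the pore-forming α subunit, measured 116 to 203 FPKM (median 146) against 70.4 to 89.3 (median 78.7), and fell by 0.91 ± 0.11 (adjusted p = 0.00185). None of the 3 genes overlapped between the groups.

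The translocon-associated TRAP complex, which helps insert nascent chains, fell in all 4 subunits. Ssr3 measured 122 to 165 FPKM in control and 62.1 to 94.0 in Ern1-labelled libraries, a log2 fold change of -0.87 (adjusted p = 0.00150). Ssr2, Ssr4 and Ssr1 had log2 fold changes of -0.85, -0.75 and -0.49 (adjusted p = 0.000940, 0.00708 and 0.00955). Spcs2 and Spcs3, subunits of the signal peptidase that trims the entering chain, fell by 0.80 and 0.70 on the log2 scale (adjusted p = 0.000940 and 0.00425). Tram1, a membrane protein beside the channel, and Srprb, the membrane anchor of the receptor for the signal recognition particle, fell by 0.55 and 0.50 (adjusted p = 0.00597 and 0.0487).

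Not every gene of the step was called. Sec61a2, the second α subunit gene, had a log2 fold change of 0.22 (adjusted p = 0.340), and Sec63, a helper of the channel, one of -0.34 (adjusted p = 0.460). The signal peptidase catalytic subunits Sec11c and Sec11a had values of -0.53 (adjusted p = 0.0607) and -0.33 (adjusted p = 0.124). None of the listed genes of the signal recognition particle itself, which works in the cytosol, was called by limma.

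In N-glycosylation, 9 of 35 tested genes fell and 0 rose, with a median of -0.18. Of the 9 fallen genes, 7 encode the oligosaccharyltransferase, which moves the finished sugar tree onto entering proteins. Krtcap2, a subunit of the complex that sits at the translocon, measured 525 to 743 FPKM in control libraries (median 651) and 303 to 448 in Ern1-labelled ones (median 362), a log2 fold change of -0.82 ± 0.07 (adjusted p = 0.000199). Stt3a, its catalytic subunit, measured 127 to 184 FPKM (median 171) against 87.7 to 106 (median 95.2), and fell by 0.78 (adjusted p = 0.000410). Ostc, which links STT3A to the channel, measured 213 to 304 FPKM (median 260) against 114 to 160 (median 144), and fell by 0.86 ± 0.11 (adjusted p = 0.00195). The groups did not overlap for any of the 3.

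The shared subunits Ddost, Rpn1 and Dad1 fell by 0.77, 0.66 and 0.59 on the log2 scale (adjusted p = 0.000759, 0.0117 and 0.00103). Magt1, a subunit of the complex that holds STT3B, fell by 0.64 (adjusted p = 0.00955). Stt3b, the catalytic subunit of that other complex, had a log2 fold change of -0.11 (adjusted p = 0.653), and Rpn2 one of -0.42 (adjusted p = 0.0535). Tmem258, a small subunit that was not on the list, fell by 0.63 (adjusted p = 0.0326). Of the enzymes that build the lipid-linked sugar or its precursors, the fallen genes were Alg2, a mannosyltransferase, and Uap1, which makes UDP-N-acetylglucosamine, by 0.58 and 0.43 (adjusted p = 0.0308 and 0.0379).

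Among ER chaperones and disulfide isomerases, 12 of 46 tested genes fell and 0 rose, with a median of -0.22. Fkbp11, an ER prolyl isomerase of secretory cells, measured 29.3 to 65.9 FPKM in control libraries (median 56.5) and 6.63 to 15.7 in Ern1-labelled ones (median 9.37). Its log2 fold change of -2.23 ± 0.26 (adjusted p = 0.00103) was the lowest of the list. Pdia5, a protein disulfide isomerase that also acts on ATF6, measured 15.4 to 29.0 FPKM (median 24.9) against 5.61 to 12.9 (median 8.91), and fell by 1.40 ± 0.19 (adjusted p = 0.00386). P4hb, the main protein disulfide isomerase, measured 444 to 626 FPKM (median 593) against 239 to 281 (median 266), and fell by 1.10 ± 0.07 (adjusted p = 3.97e-05). Each of these genes was separated between the groups without overlap.

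Dnajc3, a co-chaperone of BiP that also inhibits PERK, measured 30.9 to 43.8 FPKM against 19.4 to 25.2, and fell by 0.70 on the log2 scale (adjusted p = 0.000923). Ppib, the ER cyclophilin, Erp44, which retains client proteins, and Manf, a secreted ER stress protein, fell by 0.62, 0.61 and 0.66 (adjusted p = 0.00157, 0.00416 and 0.00553). Fkbp2, Hyou1, Ero1lb, Pdia6 and Sdf2l1 fell by 0.50 to 0.57 (adjusted p = 0.00251 to 0.0351). Hyou1 is the nucleotide exchange factor of BiP and Ero1lb an oxidase that recharges disulfide isomerases.

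Other abundant members of the list were not called. Hspa5 (BiP) measured 511 to 892 FPKM in control and 439 to 855 in Ern1-labelled libraries, a log2 fold change of -0.06 (adjusted p = 0.851). Hsp90b1 (GRP94) measured 312 to 500 against 301 to 477 FPKM, a log2 fold change of 0.00 (adjusted p = 0.997). For the lectin chaperones Calr and Canx the values were 0.19 (adjusted p = 0.340) and -0.14 (adjusted p = 0.464). Pdia3 and Pdia4 had log2 fold changes of -0.24 (adjusted p = 0.191) and -0.39 (adjusted p = 0.230). Dnajb9 (ERdj4), a BiP co-chaperone that binds IRE1 and a well-known XBP1s target, measured 9.89 to 25.5 against 4.79 to 15.7 FPKM. With that spread its log2 fold change of -0.81 was not called (adjusted p = 0.190).

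ER-associated degradation, which sends misfolded proteins back to the proteasome, held fewer called genes. Of 45 tested genes 5 fell and 0 rose, and the median was 0.00. Edem2, which trims mannose from glycoproteins that are to be degraded, measured 54.4 to 96.9 FPKM in control libraries (median 66.3) and 33.4 to 48.1 in Ern1-labelled ones (median 39.2), a log2 fold change of -0.78 ± 0.11 (adjusted p = 0.00553). Herpud1, which organises the ligase complex, measured 69.2 to 84.2 FPKM (median 82.0) against 56.0 to 63.9 (median 59.5), and fell by 0.41 ± 0.06 (adjusted p = 0.00592). Both genes were separated without overlap. Hspa13, an ER Hsp70 relative, and Vimp (selenoprotein S), a retrotranslocation factor, fell by 0.78 and 0.76 (adjusted p = 0.0139 and 0.00113). Derl1, a retrotranslocation channel protein, fell by 0.28 (adjusted p = 0.0482), and was not called in any of the 12 leave-one-out fits. Edem1 had a log2 fold change of -0.26 (adjusted p = 0.559), Sel1l, the scaffold of the ligase, one of 0.34 (adjusted p = 0.148), and Syvn1, the ligase HRD1, one of -0.24 (adjusted p = 0.415).

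In COPII and ER-Golgi trafficking, 13 of 71 tested genes fell and 0 rose, with a median of -0.15. Sec24d (chr3:123264801-123365641, build mm10), a cargo-binding subunit of the COPII coat, had the lowest log2 fold change of the 85 genes that fell. It measured 17.4, 9.42 and 11.4 FPKM in WT and 22, 11 and 10.7 in ITD. In IRE1_KO it measured 1.76, 1.52 and 0.768 FPKM, and in IRE1_KO_ITD 0.691, 0.954 and 0.338. The groups were widely separated, and the log2 fold change was -2.85 ± 0.23 (adjusted p = 6.27e-05). Its paralogs were not called: Sec24a, Sec24b and Sec24c had log2 fold changes of -0.03, 0.24 and -0.20 (adjusted p = 0.921, 0.537 and 0.341). Of the partner subunits, Sec23b fell by 0.40 (adjusted p = 0.00699), while Sec23a had a log2 fold change of -0.05 (adjusted p = 0.882) and Sec31a one of -0.18.

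Some cargo receptors of this step were also called. Surf4, a receptor for soluble cargo, measured 113 to 159 FPKM in control libraries (median 151) and 80.8 to 91.0 in Ern1-labelled ones (median 85.3), a log2 fold change of -0.76 (adjusted p = 0.000188). Lman1, the mannose-binding receptor ERGIC-53, and Tmed3, Tmed9 and Tmed10 of the p24 family fell by 0.61, 0.60, 0.68 and 0.40 (adjusted p = 0.00533, 0.000940, 0.0232 and 0.00425). The p24 genes Tmed2, Tmed4, Tmed5 and Tmed7 were not called, with log2 fold changes of -0.52, -0.10, -0.17 and -0.53 (adjusted p = 0.198, 0.488, 0.383 and 0.277). Nor were the lectin receptor Lman2, the LMAN1 partner Mcfd2 and the retrieval receptors Kdelr1 and Kdelr2, at -0.37, -0.32, -0.23 and -0.37 (adjusted p = 0.115, 0.145, 0.439 and 0.0828). Cope, a subunit of the COPI coat of the return route, measured 256 to 411 FPKM (median 378) against 172 to 217 (median 185), and fell by 0.90 ± 0.09 (adjusted p = 0.000266). The SNAREs Bet1, Sec22b and Stx5a fell by 0.71, 0.40 and 0.31 (adjusted p = 0.0254, 0.0487 and 0.0232).

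**Figure D3:**
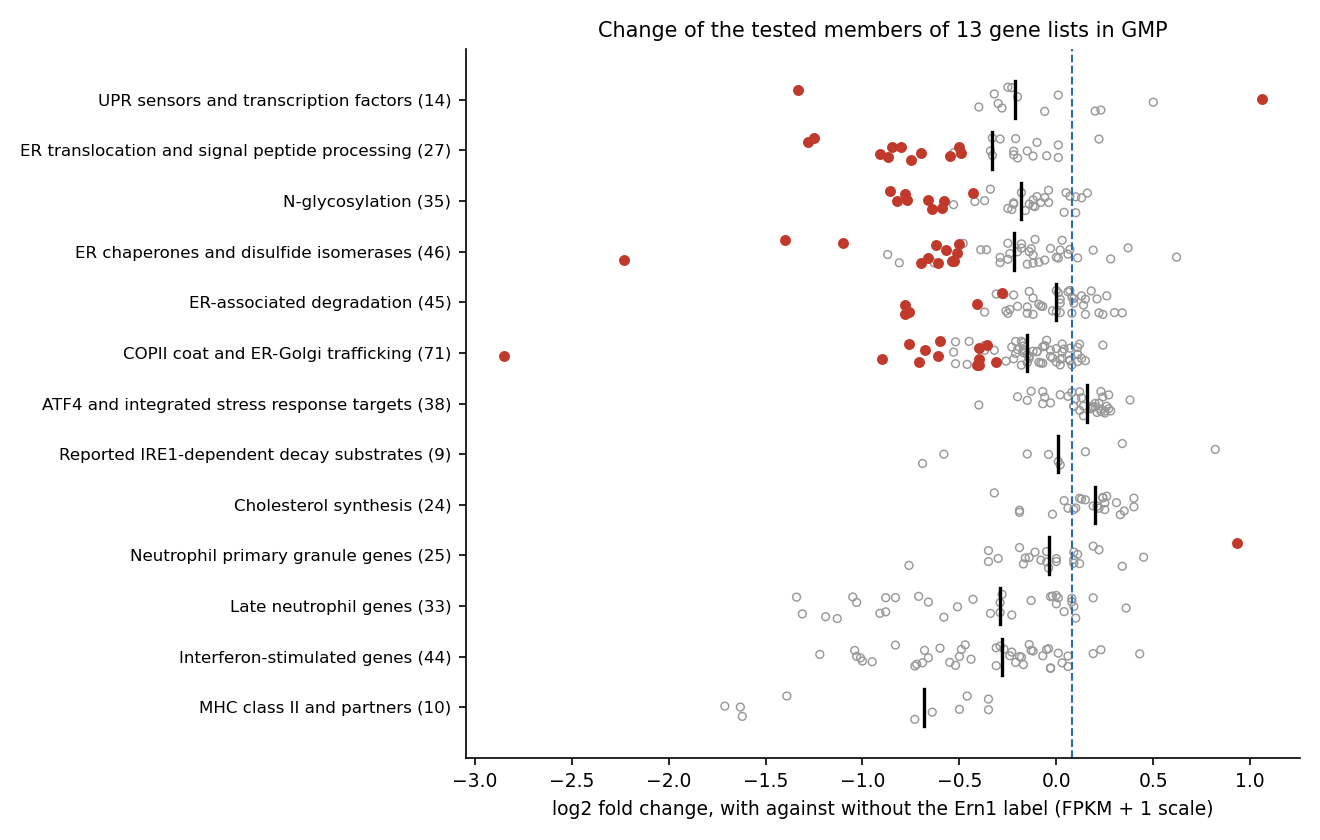
Log2 fold change of each tested gene in 13 gene lists; red points are called genes, grey open points genes that were not called, the black bar the median of the list, and the blue dashed line the median of all tested genes, 0.08. Called genes lie below 0 in the 5 ER lists, while the integrated stress response and RIDD lists hold none.

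Outside the 5 lists, 35 further genes fell. Serp1, Tmem39a, Itm2c and the other genes of the naming rule are given first, and those after them were chosen after their values were seen. Serp1, which stabilises proteins at the translocon, measured 200 to 261 FPKM in control libraries (median 222) and 103 to 147 in Ern1-labelled ones (median 118), a log2 fold change of -0.88 ± 0.06 (adjusted p = 3.97e-05). Tmem39a, a multipass ER membrane protein, measured 15.8 to 23.1 FPKM (median 21.4) against 10.1 to 11.1 (median 10.8), and fell by 0.89 ± 0.08 (adjusted p = 0.000199). Itm2c, a BRI family membrane protein, measured 63.0 to 102 FPKM (median 76.2) against 31.3 to 48.3 (median 38.1), and fell by 1.02 ± 0.09 (adjusted p = 0.000199). All 3 were separated without overlap.

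Nucb2, a calcium-binding protein of the secretory pathway, measured 19.7 to 55.2 FPKM in control libraries (median 38.2) and 4.21 to 19.9 in Ern1-labelled ones (median 9.74). The pooled groups overlapped narrowly, while within each Flt3 genotype they did not. Its log2 fold change was -1.82 ± 0.14 (adjusted p = 4.39e-05), and without the Flt3 covariate the adjusted p was 0.0831. Slc39a7, a zinc channel of the ER, and Slc35b1, the ER transporter that brings in ATP, fell by 0.74 and 0.70 on the log2 scale (adjusted p = 0.000812 and 0.00195). Gmppa and Gmppb, the subunits of the enzyme that makes GDP-mannose, fell by 0.48 and 0.55 (adjusted p = 0.0253 and 0.0383), while Pmm1, Pmm2 and Mpi of the same route had log2 fold changes between -0.02 and -0.01.

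Genes of the UFM1 pathway, which attaches a ubiquitin-like protein to ribosomes at the ER, fell too. Ufc1 conjugates UFM1 to its targets, Ufl1 and Cdk5rap3 belong to the ligase, and Ufsp2 removes it. These fell by 0.44, 0.55, 0.42 and 0.62 on the log2 scale (adjusted p = 0.0135, 0.0270, 0.0176 and 0.0153). Not called were Ufm1, Ddrgk1 and Ufsp1: Ufm1, the modifier itself, had a log2 fold change of -0.37 (adjusted p = 0.102), the ligase adaptor Ddrgk1 one of 0.24 (adjusted p = 0.117), and Ufsp1 one of 0.01. Among fallen genes without a known ER role were Isg20, an interferon-induced exonuclease, Cks1b, a cell cycle kinase subunit, and the ribosomal protein gene Rpl10, with log2 fold changes of -1.15, -0.41 and -0.44 (adjusted p = 0.0189, 0.00708 and 0.0148). Isg20 was called in 8 of the 12 leave-one-out fits. Rpl10 has near-identical copies in the genome between which reads can be split, so its value is uncertain.

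The 21 risen genes formed no group of the lists. Sva (chr6:42038394-42042851, build mm10), a seminal vesicle secretory gene, was listed at 0 FPKM in 5 of 6 control libraries and at 0.0692 in the other. In Ern1-labelled libraries it measured 4.25 to 6.56 FPKM (median 5.36). The difference was 2.66 ± 0.10 on the log2(FPKM + 1) scale (adjusted p = 6.64e-08), the smallest p of all genes tested, and no fold is given because the control value is at or near 0. Every Ern1-labelled library lay above every control library.

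The other risen genes changed less. As for every gene here, VavCre and Ern1 loss cannot be told apart for them. Commd10, a subunit of the complex that sorts endosomal cargo, measured 19.7 to 23.9 FPKM in control libraries (median 22) and 28.1 to 38.4 in Ern1-labelled ones (median 35.7), a log2 fold change of 0.65 ± 0.07 (adjusted p = 0.000787). Pbxip1, which binds PBX homeodomain proteins, measured 4.75 to 7.55 FPKM (median 6.53) against 9.36 to 13.9 (median 10.9), and rose by 0.72 ± 0.10 (adjusted p = 0.00425). Fam134c, a receptor for autophagy of the ER, measured 5.57 to 8.23 FPKM (median 7.28) against 8.98 to 15.3 (median 10.9), and rose by 0.64 ± 0.11 (adjusted p = 0.0139). These were separated without overlap, though Fam134c had an adjusted p of 0.105 without the Flt3 covariate. Sptbn1, a spectrin of the membrane skeleton, rose by 0.50 ± 0.08 (adjusted p = 0.0139). Bcl2l1, which encodes the survival protein BCL-XL, Hif1a, the hypoxia factor, and Jak1, a cytokine receptor kinase, rose by 0.50, 0.50 and 0.32 (adjusted p = 0.0281, 0.0487 and 0.0351). Ehd3, an endosomal ATPase, Tnfrsf1b, a receptor for tumour necrosis factor, and Adam10, a membrane protease, rose by 0.86, 0.34 and 0.32 (adjusted p = 0.0346, 0.0189 and 0.0378). The genes from Bcl2l1 on were chosen after their values were seen.

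Other stress pathways and the products of the cell held few or no calls. Of 38 tested targets of ATF4 and the integrated stress response, limma called 0, with 4 at an unadjusted p under 0.05 and a median of 0.16. Over all genes the unadjusted share was 15.9%. Of 9 tested RIDD substrates 0 were called and 2 had an unadjusted p under 0.05, with a median of 0.01. Bloc1s1, the best known of these substrates, had a log2 fold change of 0.15 ± 0.08 (adjusted p = 0.394). Of 26 tested genes of ER lipid synthesis and 24 of cholesterol synthesis, 0 were called. Their medians were 0.10 and 0.20, against 0.08 over all genes. In each list 4 genes lay below 0, while 6 and 10 had an unadjusted p under 0.05.

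Mpo, Elane, Prtn3 and Ctsg, genes of granule proteins that GMP send through the ER, were not called. Mpo, the gene of myeloperoxidase, had a log2 fold change of 0.00 (adjusted p = 0.991), and the serine proteases Elane, Prtn3 and Ctsg had values of -0.17, -0.08 and -0.35 (adjusted p = 0.460, 0.681 and 0.227). Of 25 tested genes of the primary granule list, Dmkn was the only one called, and it rose by 0.93 (adjusted p = 0.0456). With both libraries that stood apart left out, it was not called. The 26 listed genes summed to 41858 to 44104 FPKM in WT and 34680 to 41655 in IRE1_KO, without overlap. In ITD they summed to 26327 to 31006.5 and in IRE1_KO_ITD to 27054 to 32921. The receptor genes Flt3 and Kit had log2 fold changes of 0.16 ± 0.31 (adjusted p = 0.835) and 0.30 ± 0.09 (adjusted p = 0.164). Of 36 proteasome, 74 oxidative phosphorylation and 43 S phase genes tested, 0 were called, with 3, 4 and 9 at an unadjusted p under 0.05.

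The same comparison was made in each Flt3 genotype from its own 6 libraries, so that the fits shared no library. In IRE1_KO against WT, 55 of 10617 genes fell, 0.518%, and 4 rose, 0.0377%. In IRE1_KO_ITD against ITD, 9 of 10831 genes fell, 0.0831%, and 3 rose, 0.0277%. Of the 55 genes that fell in the first pair, 54 were tested in the second, where 50 lay below 0 and 4 were called. Their median log2 fold change was -0.88 in the first pair and -0.54 in the second, where the median of all genes was 0.08 and 37.3% lay below 0. In the other direction, 6 of the 9 genes that fell in the ITD pair were tested in the WT pair, where 5 lay below 0 and 4 were called.

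**Figure D4:**
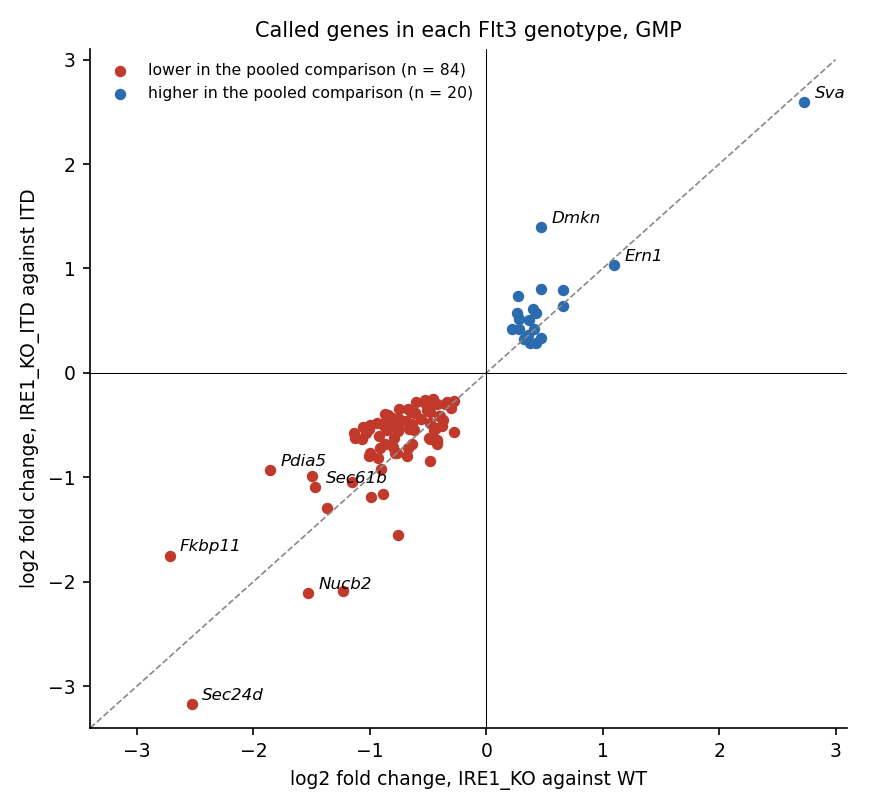
Log2 fold changes of genes called in the pooled comparison, from separate fits of IRE1_KO against WT (horizontal) and IRE1_KO_ITD against ITD (vertical); the dashed line marks equal values. The 84 fallen and 20 risen genes tested in both are shown, and their common direction was fixed by how they were chosen.

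The difference of the effect between the Flt3 genotypes was then tested with an interaction term over all 12 libraries. With limma 0 genes were called and 1468, 13.1%, had an unadjusted p under 0.05. The 3 genes with the smallest p were Slamf7, Snx22 and Tmem218. Slamf7, an immune cell surface receptor, measured 0.348 to 0.894 FPKM in WT, 0.344 to 0.729 in IRE1_KO, 2.54 to 3.92 in ITD and 0.156 to 0.345 in IRE1_KO_ITD. The difference of its effects was -1.81 ± 0.25 (adjusted p = 0.120). Snx22 and Tmem218 had differences of -1.77 ± 0.25 (adjusted p = 0.120) and 0.97 ± 0.15 (adjusted p = 0.140). The count of 0 rested on single libraries. With ITD replicate 1 left out, 47 genes were called higher and 44 lower. The lower ones held 15 of the 44 interferon-stimulated genes tested. With IRE1_KO_ITD replicate 3 left out as well, 34 and 37 were called, and with IRE1_KO_ITD replicate 2 left out alone, 1 and 11. Any other library left out gave at most 1 in either direction.

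MHC class II genes, which present antigen, had unequal values in the Flt3 genotypes. Their pooled list held 0 called genes of 10, 7 at an unadjusted p under 0.05, and a median of -0.69. Cd74, the invariant chain, measured 26.0, 67.2 and 39.6 FPKM in WT and 27.1, 68.6 and 80.3 in IRE1_KO. It measured 643, 740 and 1178 FPKM in ITD and 49, 146 and 27.9 in IRE1_KO_ITD. The ITD libraries stood above all others. In the 12-library fit its log2 fold change was -3.79 ± 0.59 within Flt3-ITD (adjusted p = 0.0140) and 0.36 within Flt3 wild type (adjusted p = 0.822). The difference of -4.15 ± 0.84 was not called (adjusted p = 0.176). In that fit 103 genes fell within Flt3-ITD, 0.916%, and 103 rose, 0.916%. Within Flt3 wild type 57 fell, 0.507%, and 3 rose, 0.0267%. Of the 10 MHC class II genes 7 fell within Flt3-ITD and 0 within Flt3 wild type. These calls draw on the spread of all 12 libraries. The ITD pair fitted from its own 6 libraries held 9 fallen genes. Ciita, the master regulator of these genes, fell by 1.68 within Flt3-ITD (adjusted p = 0.00701). The interferon-stimulated genes had a median of -0.59 within Flt3-ITD and 0.00 within Flt3 wild type, and 0 of 44 were called in the pooled comparison, with 10 at an unadjusted p under 0.05. The summed monocyte and dendritic cell markers, which share the antigen-presenting lineage, were 677 to 885 FPKM in ITD and 475 to 797 in IRE1_KO_ITD; those of mature neutrophils were 573 to 14665 and 310 to 2406. Sex was uneven in this background too: males gave 2 of the 3 IRE1_KO_ITD libraries and none of the ITD ones. Sex and the Ern1 label are thus partly mixed within Flt3-ITD. The part of these cell types and of sex in these values was not tested.

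The pooled effect in GMP was finally set against that in LSK cells, the Lin-Sca1+cKit+ population that holds stem and early progenitor cells, from the 12 LSK libraries of the same genotypes. The labels do not say whether GMP and LSK libraries came from the same animals. By Xist and Y-linked genes, IRE1_KO_ITD replicates 2 and 3 differed in sex between GMP and LSK. Those same-numbered libraries thus came from different animals. In the other genotypes same-numbered libraries were of the same sex, which leaves the question open there. The difference of the effects was called for 203 of 12348 genes in the higher direction, 1.64%, and for 1201 in the lower, 9.73%, while 22.5% had an unadjusted p under 0.05. In the file headers a 1ng tag marks every IRE1_KO LSK library and no library of another LSK group, so their input amount and their genotype cannot be told apart. In the Flt3-ITD genotypes alone, which do not use them, 3 of 11771 differences were called, 0.0255%. That LSK pair was not alike either. FPKM sums were 510361 to 514280 in IRE1_KO_ITD LSK and 566084 to 571899 in ITD LSK. Genes named Rpl or Rps held 9.995% to 10.87% and 12.18% to 13.07% of these sums. Mir6236 held 0.1747% to 0.9038% in IRE1_KO LSK and 4.41% to 6.238% in the other LSK libraries. The part of these shifts in the differences was not tested.

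The 85 genes that fell in GMP had a median log2 fold change of -0.54 within Flt3-ITD GMP and of -0.26 in the Flt3-ITD LSK libraries, where 84 were tested, 28 fell, 2 rose and 75 lay below 0. Of all genes in those libraries 6.96% fell, 13.3% rose and 43.1% lay below 0, with a median of 0.06. In the Flt3 wild-type LSK libraries with the 1ng tag their median was 0.00, with 4 fallen and 6 risen of 84 tested, where 2.72% of all genes fell and 21% rose. In the GMP of that background the median was -0.76. Sec24d had a GMP effect 2.46 lower than its LSK effect over all genotypes, and 2.47 lower in the Flt3-ITD genotypes (adjusted p = 0.0511). Dnajc3 was 1.39 lower over all and 1.15 lower in the Flt3-ITD genotypes (adjusted p = 0.0511). These had the smallest p in the Flt3-ITD genotypes among the 38 named genes whose difference was called over all genotypes. For others the difference was close to 0 there: it went from -0.66 to -0.06 for Sec61g, from -0.61 to -0.14 for Sec61b, from -0.51 to -0.02 for Ostc and from -0.37 to -0.03 for Krtcap2 (adjusted p = 0.928, 0.388, 0.960 and 0.905 in the Flt3-ITD genotypes). The choice of these genes for their fall in GMP favours a larger GMP value, and how far it does so was not tested.

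**Figure D5:**
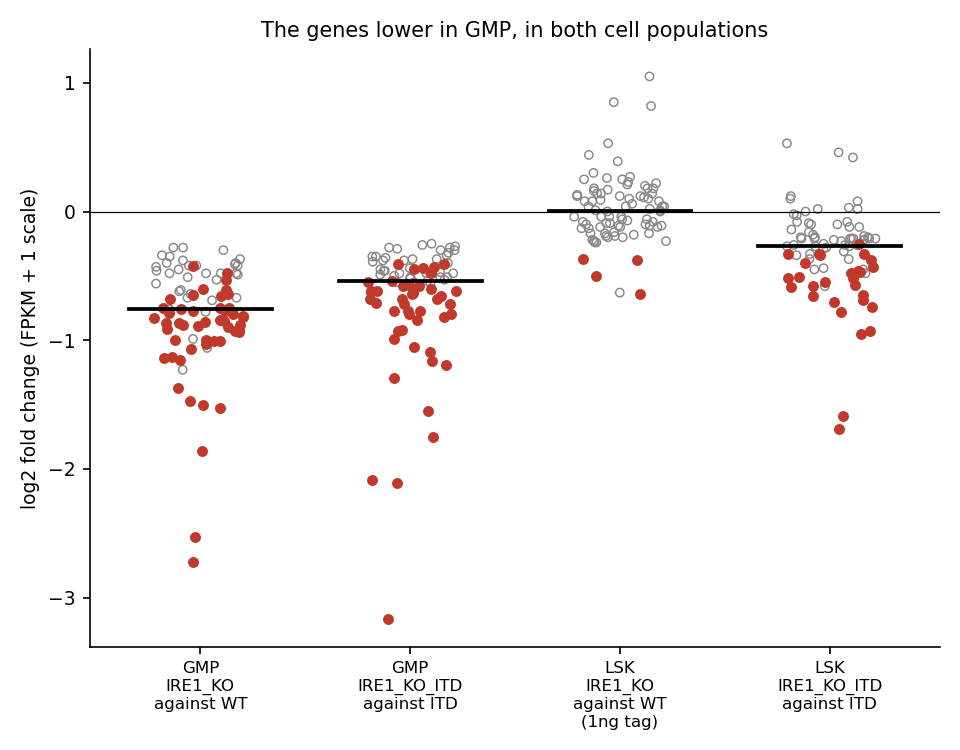
Log2 fold change of the 85 genes that fell in the pooled GMP comparison, in GMP (85 genes) and LSK (84 of them tested) of Flt3 wild-type and Flt3-ITD background; red points are genes called lower in that comparison and bars are medians. The medians are -0.76 and -0.54 in GMP and 0.00 and -0.26 in LSK, where the Flt3 wild-type comparison holds the libraries with the 1ng tag.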

How the data were processed

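RNA was measured in sorted GMP and LSK cells of mouse bone marrow, 3 libraries per genotype and population. The deposited values are FPKM per gene and library. Per the submitters' processing notes the authors used STAR, Cufflinks and the build mm10; the sources used here do not give their versions or roles. Per the labels' protocols, libraries were made with SMART-Seq v4 and Nextera XT, whereas the series' design text names a stranded TruSeq kit, so strand specificity is uncertain and overlapping genes cannot be told apart. A table of FPKM gives no count, and no interval from counting was made.

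Of 23991 genes, 11249 reached 1 FPKM in 3 or more of the 12 GMP libraries and were tested on log2(FPKM + 1), pseudocount 1, with limma 3.58.1 (empirical Bayes with a mean-variance trend) in R 4.3.3, with Benjamini-Hochberg adjustment over all tested genes and a threshold of 0.05. Tables and figures were made with Python 3.11.15, pandas 2.3.3, numpy 2.4.6 and matplotlib 3.10.9. On simulated data for 11249 genes, 47% of changes of 0.5 and 87.8% of changes of 1 on the log2 scale were recovered, with 4 to 10 unchanged genes called in each of 5 runs. The simulated noise was independent between genes, so these rates leave out shifts that many genes of a library share.

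The compared groups and gene lists (34 lists, 1150 of 1157 entries matched) were chosen with earlier results of these data known. Genes were named by rule: 13 genes always; up to 12 per direction with adjusted p under 0.05, a log2 change of 0.5 or more, no overlap of libraries and 5 FPKM or more on average among the higher 6; per list with 3 or more called genes, its 6 called members of smallest p; the 3 with the smallest p of the Flt3 difference; and the 5 highest and 5 lowest GMP-LSK differences. Genes named beyond the rule were picked with their values in view. Alternatives covered the pseudocount (0.1), filters (none, 5 FPKM), quantile and median-ratio scaling, a replicate block, sex read from Xist and Y-linked genes, no Flt3 covariate, no trend, each Flt3 genotype alone and each library left out. Median-ratio scaling moved the median log2 fold change of all genes from 0.0784 to 0.0126. Promoter windows are RefSeq's, build GRCm38.p6. Results of some genes are not reported here.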

Additional observations from a re-analysis of the deposited data

Results flagged for a closer look

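Among the named genes, 38 had an effect of the Ern1 label that differed between GMP and LSK in limma's test of the difference (adjusted p under 0.05). The IRE1_KO LSK libraries carry the 1ng tag, which cannot be told apart from their genotype. In the Flt3-ITD genotypes alone, which do not use those libraries, limma called 0 of the 38, with a lowest adjusted p of 0.0511. All 38 kept their sign there, but those libraries are also part of the fit over all genotypes, so this is no independent support, and several values were close to 0. For 19 of the 38 the difference over all genotypes was more than 1.5 times that in the Flt3-ITD genotypes. LSK libraries of IRE1_KO_ITD and ITD also differed in FPKM sum, as given above. Values below are the GMP effect minus the LSK effect on the log2(FPKM + 1) scale, given for each gene first over all genotypes and then in the Flt3-ITD genotypes alone.

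For the sensors and the genes named in every case, the differences were -0.65 and -0.82 for Xbp1, -0.75 and -0.48 for Eif2ak3, -1.08 and -1.12 for Edem1, -0.86 and -0.61 for Sec61a1 and 0.31 and 0.56 for Bloc1s1. In translocation they were -0.61 and -0.14 for Sec61b, -0.66 and -0.06 for Sec61g, -0.58 and -0.22 for Ssr3, -0.58 and -0.27 for Ssr2 and -0.78 and -0.49 for Spcs2. In N-glycosylation they were -0.37 and -0.03 for Krtcap2, -0.74 and -0.44 for Stt3a, -0.78 and -0.56 for Ddost, -0.41 and -0.10 for Dad1 and -0.51 and -0.02 for Ostc. Among chaperones they were -1.12 and -0.49 for Pdia5, -0.83 and -0.56 for P4hb, -1.39 and -1.15 for Dnajc3 and -0.37 and -0.10 for Ppib.

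In ER-associated degradation the differences were -0.64 and -0.51 for Edem2, -0.74 and -0.38 for Hspa13 and -0.45 and -0.35 for Derl1. In trafficking they were -2.46 and -2.47 for Sec24d, -0.66 and -0.42 for Cope, -0.75 and -0.57 for Surf4 and -0.63 and -0.39 for Lman1. Other genes named in the pooled comparison had differences of -0.90 and -0.78 for Itm2c, -0.54 and -0.32 for Tmem39a, -0.93 and -0.49 for Serp1 and 0.47 and 0.36 for Pbxip1. Among the genes with the lowest differences over all genotypes that met the FPKM minimum, they were -2.45 and -2.36 for Jund, -2.32 and -2.09 for Zfp771, -2.27 and -1.79 for Exosc6 and -2.27 and -2.05 for Taf10. Among those with the highest they were 1.98 and 0.19 for Lars2, 1.05 and 2.03 for Lgals3, 1.0 and 1.03 for Cox4i2 and 0.99 and 0.53 for Mpst. The difference of Lars2, the highest of these over all genotypes, had an adjusted p of 0.709 in the Flt3-ITD genotypes alone, where Lgals3 had the highest value.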

How the results depend on the processing

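The count of 85 fallen genes stayed within 1.5 times except with median-ratio scaling (132), in IRE1_KO against WT alone (55) and in IRE1_KO_ITD against ITD alone (9). It ranged from 61 to 87 with 1 library left out. Quantile scaling gave 122 lower and 15 higher, and median-ratio scaling 15 higher. The count of 21 risen genes was 11 without the filter, 6 with the replicate block, 7 with sex as a covariate, 7 without the Flt3 covariate, 4 in the WT pair and 3 in the ITD pair, and 6 to 54 with 1 library left out; leaving out any library but IRE1_KO replicate 3 (25 higher) moved it by over 1.5 times. Deviations of same-numbered libraries correlated at -0.372 to 0.0931, below what pairing would need; with the replicate block 62 genes fell. The 0 calls of the Flt3 difference became 1 higher and 2 lower without the filter, 34 and 37 without both libraries that stood apart, and up to 47 and 44 with 1 library left out. The GMP-LSK counts of 203 higher and 1201 lower were 128 higher without the filter, 593 higher with quantile and 331 with median-ratio scaling, and 1 higher and 2 lower in the Flt3-ITD genotypes alone; with 1 library left out they ranged from 111 to 278 and from 905 to 1465. Single named genes were not called in 91 fits where the comparison as reported called them, became called in 5 and changed direction in 0. Smaller tests hold fewer libraries; otherwise the cause was not tested. The number of libraries and FPKM without counts limit the precision.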

Other observations

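In the Armcx genes of chromosome X, which encode mitochondrial and cytosolic armadillo proteins, Armcx2 and Armcx3 fell by 1.09 and 0.70 on the log2 scale (limma, adjusted p = 0.00371 for both). Armcx1, Armcx5 and Armcx6 had log2 fold changes of 0.30, 0.13 and -0.59 (adjusted p = 0.321 for Armcx1 and 0.137 for Armcx6). On chromosome X as a whole 5 of 342 tested genes fell and 1 rose, while 0.756% of all tested genes fell and 0.187% rose. Of the zinc transporters of the secretory pathway, Slc30a7 fell by 0.36 (adjusted p = 0.0447) beside Slc39a7, while Slc30a5 and Slc30a6 had log2 fold changes of -0.14 and 0.01. By Xist and Y-linked genes, 1 of 3 WT, 2 of 3 IRE1_KO, 3 of 3 ITD and 1 of 3 IRE1_KO_ITD libraries came from females.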
